A study of Mus musculus with 4 samples.

Results

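Carboxylesterases and paraoxonases are 2 families of liver hydrolases, and 10 of their genes were followed in livers of newborn mice: Ces1c, Ces1d, Ces1e, Ces1g, Ces2a, Ces2e, Ces3a, Pon1, Pon2 and Pon3. Members were taken as every array probe annotated to one of these symbols. This gave 13 probes for 9 genes out of the 16593 genes with a probe on the array, with 3 probes each for Ces1c and Pon3 and none annotated to Ces3a, which is not analysed here. Whole livers at postnatal day 1 were compared between 2 Lats1/2 double-knockout (DKO) samples and 2 control samples on Illumina MouseRef-8 bead arrays, 1 array per sample. DKO mice (Lats1-/-;Lats2f/fl;Alb-cre) lacked Lats1 in all cells and lost Lats2 only in cells that switched on albumin-driven Cre. Their controls were labelled wild type and were born to the same dams. All 4 samples were of a mixed B6;129 background and were labelled female. Lats1 and Lats2 encode the Hippo pathway kinases that hold back YAP and TAZ, and the comparison asks how their loss alters gene expression in the developing liver.

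Carboxylesterases are serine hydrolases, mostly of the endoplasmic reticulum, that split ester and amide bonds in drugs, pesticides and stored lipids. The liver is their richest source, and in rodents a Ces1 product is also secreted into plasma. Paraoxonases are calcium-dependent lactonases: PON1 and PON3 travel in blood on high-density lipoprotein (HDL) made by the liver, whereas PON2 stays inside cells of many tissues. Ces1 and Ces2 genes arose by tandem duplication and are close in sequence, so 1 probe can bind transcripts of several paralogs. Probe sequences were not analysed here, so every Ces value below is that of a probe and may include a paralog.

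The arrays detected between 12514 and 13641 of 25697 probes (detection p under 0.05). The targeted genes gave no usable check of the labels: Lats1 had no annotated probe, and the Lats2 probe read 246 and 220.3 in DKO livers against 216 and 192 in control livers (log2 change 0.61, SE 0.37, adjusted p = 0.53), with its position relative to the floxed exons not given. Control 2 went against its label of female. The log2 intensity of the Y-linked gene Eif2s3y was 4.76 in DKO 1, 4.94 in DKO 2, 4.69 in Control 1 and 11.31 in Control 2. For Xist it was 9.76 in DKO 1, 9.07 in DKO 2, 9.86 in Control 1 and 5.16 in Control 2. Values of the tested members are therefore also given without this array. All 10 hepatocyte markers had a probe that was detected, with summed intensities of 324710 and 273058 in DKO livers and 378997 and 332903 in control livers. Very bright probes make up most of these sums, such as Trf at 66249 and 60618 in DKO livers and 67763 and 62473 in control livers. Whether such bright probes can still register a fall was not tested. Markers of intestine (Cdx2, Fabp2, Vil1) and kidney (Kap, Slc34a1, Umod), which are other sites of Ces expression, were detected on no array.

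3 members fell in DKO livers: Ces1d, Pon1 and Ces1c. After background correction they were 159-fold, 128-fold and 88.9-fold lower, but without that step 47.3-fold, 37.7-fold and 24.7-fold lower, and each was undetected on 1 of the 2 DKO arrays. The other 5 tested members, Ces1e, Ces1g, Ces2a, Pon3 and Pon2, had lower means in DKO livers but did not pass the test. Of the 10 members, 9 had a probe and 8 had a probe that was detected on at least 2 of the 4 arrays and was tested by limma across 13654 probes, with Benjamini-Hochberg adjustment. 3 of these 8 were called lower and 0 higher, where 1.68% of 9502 tested genes were called lower and 1.75% higher. Counted as probes, 4 of the 11 tested member probes were called lower, and 0 higher, beside 1.61% and 1.63% of all tested probes. In all 8 both DKO values lay below both control values, as did 22.8% of all tested genes, and the same held for all 11 tested member probes, beside 22% of all tested probes. These counts are descriptions, since 5 of the 8 (Ces1c, Ces1d, Ces1e, Ces1g and Pon1) were detected on both control arrays but not on both DKO arrays, so the control arrays carried them through the filter, the 3 called members among them. The median log2 change of the 8 was -1.91, beside 0.0046 over all tested genes. Without Control 2, which leaves 1 control array, the log2 changes of Ces1d, Pon1 and Ces1c were -7.70, -7.81 and -6.81. When no filter on dim probes was applied, 0 of 9 members were called, with adjusted p of 0.067 for Ces1d, 0.077 for Pon1 and 0.063 for Ces1c. The labels do not say whether the 2 samples of a group are separate animals. The 2 controls differ in the sex-linked genes above, whereas the spread between the DKO samples may be technical. In whole liver, fewer cells of a type and less RNA per cell cannot be told apart.

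**Figure D1:**
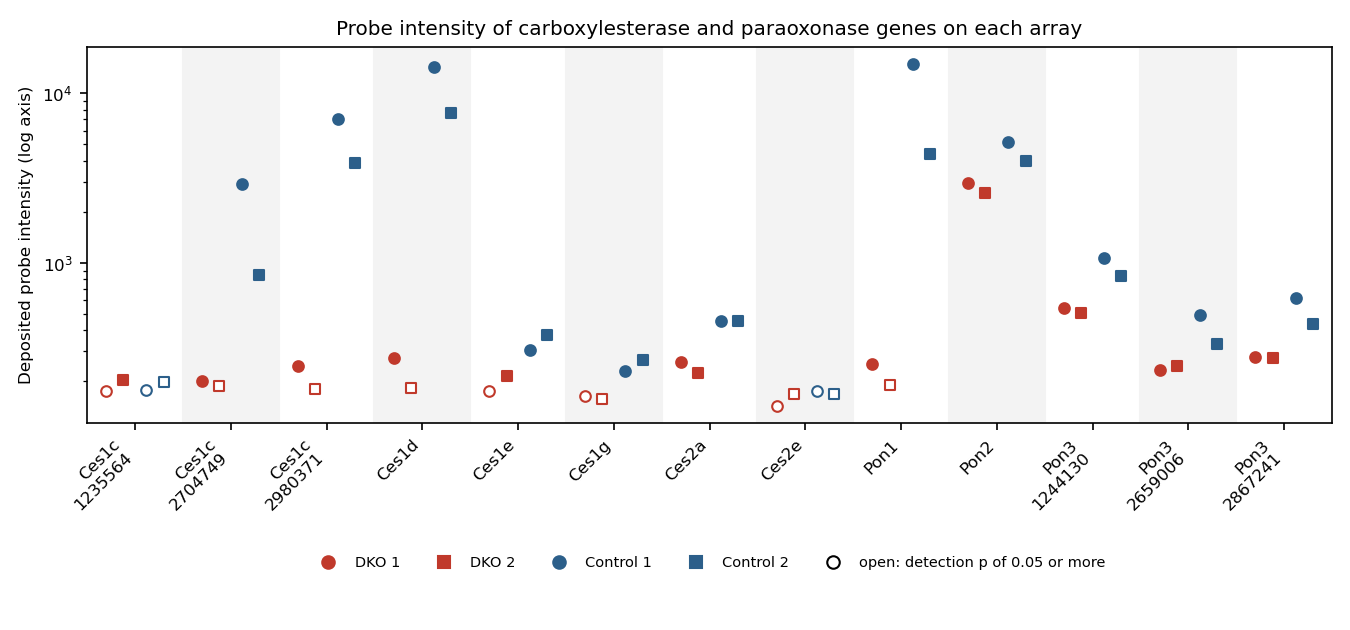
Deposited intensity of each member probe (log axis, arbitrary units) on the 4 arrays, with DKO livers in red and control livers in blue, circles for replicate 1 and squares for replicate 2. Open symbols mark probes not detected on that array. Ces1d, Pon1 and 2 of the 3 Ces1c probes lie at 181 to 274 in DKO livers and at 852 to 14845 in control livers, while Pon2 lies between 2568 and 5141 over both groups.

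Ces1d encodes a triacylglycerol hydrolase that mobilises stored fat in hepatocytes for lipoprotein assembly. Its probe read 274 and 183 in DKO livers, against 14323 and 7649.6 in control livers. The second DKO value was not detected (detection p of 0.30) and sat at the edge of measurement, whereas the first was detected. After normalization the levels were 6.01 ± 1.27 in DKO livers and 13.33 ± 0.55 in control livers (log2 intensity, SD, n = 2 each), a log2 change of -7.32 (SE 0.61, adjusted p = 0.0033, 95% interval -8.75 to -5.88). Without Control 2 the change was -7.70, and without Control 1 it was -6.93. Without DKO 2, where the probe was undetected, the change was -6.42.

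Ces1c encodes the secreted carboxylesterase of rodent plasma, and its 3 probes did not read alike. Probe ILMN_2980371, the brightest, read 247 and 181 in DKO livers against 7089 and 3855 in control livers, and DKO 2 was not detected (detection p of 0.35). Its log2 change was -6.47 (SE 0.54, adjusted p = 0.0033). Probe ILMN_2704749 read 201 and 188 in DKO livers, with DKO 2 again undetected, against 2929.6 and 852 in control livers, a log2 change of -4.99 (SE 0.56, adjusted p = 0.0059). Both probes separated the groups, but Control 1 exceeded Control 2 by 1.84-fold on the first and by 3.44-fold on the second. The call of the second probe, not that of the first, was lost when background correction was left out (adjusted p = 0.083) and with the authors' normalized values (adjusted p = 0.074). The third probe, ILMN_1235564, read 175 and 203 in DKO livers and 177 and 198.3 in control livers. Those groups overlapped, only DKO 2 passed detection (detection p of 0.047), and the probe was not tested. Without Control 2 the changes of the first and second probes were -6.81 and -5.82.

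Ces1b, the neighbour of Ces1c on the chromosome and not one of the 10 members, had a probe whose readings were close to those of the second Ces1c probe. It read 197.6 and 192 in DKO livers against 3082 and 829.8 in control livers (log2 change -5.00, SE 0.58, adjusted p = 0.0068). This call was lost without background correction (-3.03, adjusted p = 0.097), with the authors' normalized values (adjusted p = 0.089) and with no filter on dim probes (adjusted p = 0.099). On no array did the Ces1b probe and ILMN_2704749 differ by more than 5.19% of intensity, and the root mean square of their log2 differences was 0.081. The same measure between the Ces1b probe and ILMN_2980371 was 1.45. Whether these probes share a transcript was not tested. The promoters of both genes, from 250 bases before to 50 bases after a start site, are printed because they were also the most alike of all pairs of Ces and Pon promoters compared: 255 bases were identical, 85.0% of 300, and the next pair, Ces2a and Ces2c, reached 67.0%. Between a Pon and a Ces promoter the identical share ran from 43.3% (Pon2 and Ces2g) to 54.0% (Pon1 and Ces2f). No window was available for Ces1d, Ces1f, Ces2b or Ces3a, so these genes were not compared. The printed windows come from RefSeq (GRCm38.p6) at chr8:93131234-93131533 for Ces1c and chr8:93079891-93080190 for Ces1b, both on the minus strand, in lower case with matches to the searched motifs in capitals.
Ces1c: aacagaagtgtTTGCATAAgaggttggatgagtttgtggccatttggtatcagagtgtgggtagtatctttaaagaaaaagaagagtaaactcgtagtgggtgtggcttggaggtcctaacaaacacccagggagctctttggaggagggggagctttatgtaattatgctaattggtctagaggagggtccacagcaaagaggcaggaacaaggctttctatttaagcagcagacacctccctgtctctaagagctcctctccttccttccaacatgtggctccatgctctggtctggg
Ces1b: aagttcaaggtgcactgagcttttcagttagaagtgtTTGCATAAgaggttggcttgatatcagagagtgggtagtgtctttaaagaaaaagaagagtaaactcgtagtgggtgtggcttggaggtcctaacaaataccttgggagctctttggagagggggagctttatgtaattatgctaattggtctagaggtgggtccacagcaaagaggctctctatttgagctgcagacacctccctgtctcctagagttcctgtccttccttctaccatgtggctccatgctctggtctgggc
Both hold TTGCATAA, a match to the C/EBP pattern TTGCNNAA, at -239 to -232 for Ces1c and at -213 to -206 for Ces1b, counted from the start site of the printed window. Another Ces1b window, from a different start site and neither printed nor aligned, holds the same match at -136 to -129. The 5 patterns searched on both strands were TTGCNNAA, the HNF1 half-site GTTAAT, the HNF4 core CAAAGT, the TEAD pattern GGAATG and the TATA box TATAAA. They are held by 10.8%, 7.1%, 14.4%, 14.7% and 13.6% of 32851 promoter windows, and a match is a match of letters only.

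The remaining Ces1 members were dim in every liver. Ces1e encodes egasyn, which holds beta-glucuronidase in the endoplasmic reticulum. Its probe read 174 and 216 in DKO livers, the first not detected (detection p of 0.27), against 304 and 375 in control livers. The groups did not overlap, and the log2 change of -2.01 (SE 0.47) did not pass (adjusted p = 0.077). Without DKO 2 the change was -2.46, but the probe was undetected on the 1 DKO array that remained. Without Control 2 the change was -1.57. Ces1g encodes a hepatic esterase that limits triglyceride synthesis in mice. Its probe was detected on neither DKO array (163 and 158) and on both control arrays (230.3 and 265), which on the background-corrected scale gives a level at least 2.07-fold lower in DKO livers, or 1.55-fold without Control 2. On the deposited scale, where background is not removed, the means differed by 1.54-fold. The adjusted p was 0.061 for a log2 change of -1.81 (-1.40 without Control 2), so Ces1g was not called. Among the Ces1 genes outside the members, Ces1f was detected on Control 1 only (186 and 173 in DKO livers, 222 and 194 in control livers), and both Ces1a probes were detected nowhere.

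Ces2a encodes a carboxylesterase that hydrolyses di- and monoacylglycerols and drugs in mouse liver. It was detected on all 4 arrays, at 260.4 and 223 in DKO livers against 453 and 455 in control livers. The ratio of Control 1 to Control 2 was 0.995 and neither overlapped with the DKO livers, and the log2 change was -1.78 (SE 0.38, adjusted p = 0.057). The change was -2.09 without DKO 1 and -1.60 without Control 2. Ces2e, a second member of this branch, was not detected on any array, at 144 and 169 in DKO livers and 174 and 169 in control livers, and was not tested. Of the other Ces2 genes, Ces2g had 2 probes: ILMN_2895284 read 769 and 618 in DKO livers against 1247 and 1084 in control livers (log2 change -0.86, SE 0.34, adjusted p = 0.30), and the dimmer ILMN_1247906 read 269 and 199.7 in DKO livers against 323 and 178 in control livers, with overlapping groups. The single Ces2b probe was detected on no array.

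Within the third branch, Ces3b was measured by 3 probes and Ces3a by none. The brightest Ces3b probe read 271 and 185 in DKO livers, the second not detected, against 1193 and 651 in control livers. This was a fall of 10.9-fold after background correction (log2 change -3.44, SE 0.59, adjusted p = 0.026), where the deposited means differed by 4.05-fold. The call rested on both control arrays: the adjusted p was 0.14 without Control 1 (log2 change -3.08) and 0.068 without Control 2 (-3.81). It was also lost without background correction (-1.96, adjusted p = 0.072), with the authors' normalized values (-2.01, adjusted p = 0.069) and with no filter on dim probes (adjusted p = 0.18). The other Ces3b probes were detected on 1 array or none and were not tested. Ces4a was detected on no array. Of the 12 further Ces genes, 7 had a probe, 3 were tested, and 2 (Ces1b and Ces3b) were called lower, with 0 higher and a median log2 change of -3.44. Over all tested genes 1.68% were called lower and 1.75% higher. Ces1b and Ces3b were each detected on both control arrays but on only 1 DKO array, so the control arrays carried them through the filter.

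**Figure D2:**
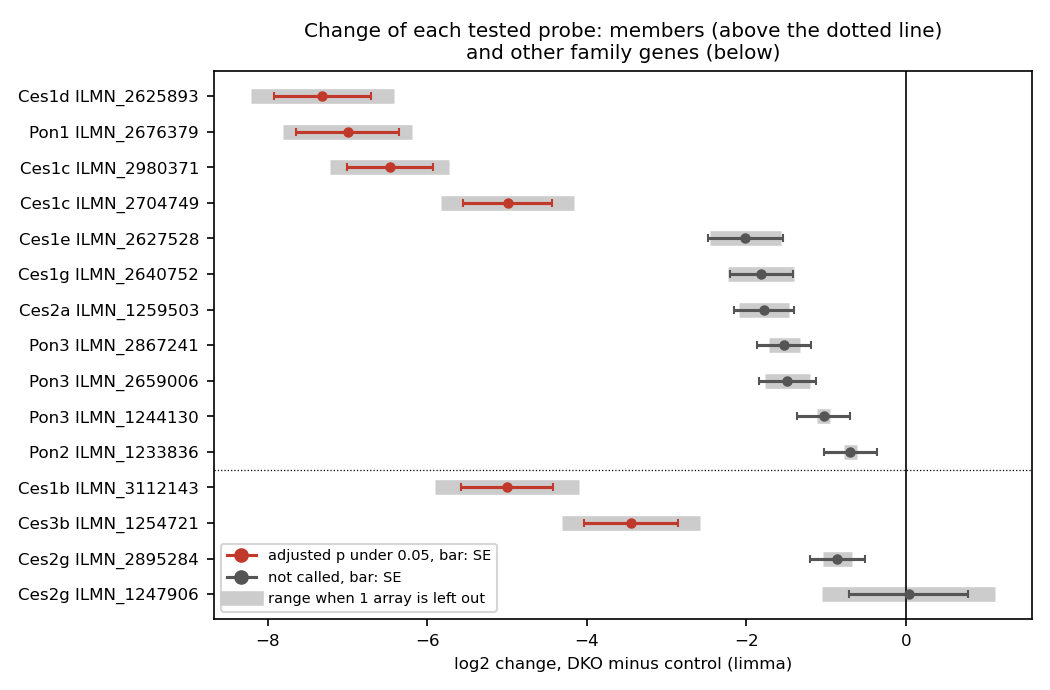
Log2 change of each tested probe, DKO minus control (points, with SE as bars), for the members above the dotted line and other Ces genes below it. Grey bars span the values found when each array was left out in turn, and red marks an adjusted p under 0.05. The called probes lie between -7.32 and -3.44, all other probes between -2.01 and 0.035.

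The 3 paraoxonase genes lie side by side on chromosome 6 and differed widely in their readings. Pon1 encodes the HDL enzyme that hydrolyses lactones and organophosphate oxons. Its probe read 253 and 191 in DKO livers, DKO 2 not detected (detection p of 0.16), against 14845 and 4367 in control livers. The control livers themselves differed by 3.40-fold, but both stood far above the DKO livers. Levels were 5.97 ± 0.96 in DKO livers and 12.97 ± 1.15 in control livers (log2 intensity, SD, n = 2 each). The log2 change was -7.00 (SE 0.65, adjusted p = 0.0034). It was -7.81 without Control 2, -6.19 without Control 1 and -6.32 without DKO 2.

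Pon2 encodes the intracellular paraoxonase, which limits oxidative damage in mitochondria and the endoplasmic reticulum. It was bright on all 4 arrays, at 2946 and 2568 in DKO livers against 5141 and 3971 in control livers. The groups did not overlap, yet the log2 change of -0.70 (SE 0.33, 95% interval -1.48 to 0.085) did not pass (adjusted p = 0.40), and it was -0.77 without Control 2. Pon3 encodes an HDL-bound lactonase that also opens statin lactones. Its probe with the highest signal, ILMN_1244130, read 543 and 502 in DKO livers against 1071 and 834 in control livers, with a log2 change of -1.03 (SE 0.33, 95% interval -1.81 to -0.25, adjusted p = 0.19). The other 2 Pon3 probes gave the same direction, at -1.48 (SE 0.36, adjusted p = 0.089) and -1.53 (SE 0.34, adjusted p = 0.068). All 3 were detected on all arrays with separated groups, and none was called. Without Control 2 their changes were -1.07, -1.77 and -1.72.

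The sizes of the changes were compared for 6 pairs of members. The log2 change of Pon1 differed from that of Pon2 by -6.31 and from that of Pon3 by -5.97, while Pon3 and Pon2 differed by -0.34. Among the carboxylesterases, the change of Ces1d differed from that of Ces1e by -5.31, from that of Ces2a by -5.54 and from that of Ces1c by -0.84. Since Pon1, Ces1d and Ces1c were undetected on DKO 2, the differences that involve them depend on the background step. A two-sided exact permutation test cannot give less than p = 0.33 with 2 against 2 arrays, and it gave that value for each pair (adjusted p = 0.33 over 6 pairs), so these differences could not be tested in this design.

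The 3 Pon promoters are printed because Pon1 alone of these neighbours was called, from RefSeq (GRCm38.p6), with the matches to the same motifs in capitals. All are on the minus strand, at chr6:5193897-5194196 for Pon1, chr6:5298291-5298590 for Pon2 and chr6:5256184-5256483 for Pon3.
Pon1: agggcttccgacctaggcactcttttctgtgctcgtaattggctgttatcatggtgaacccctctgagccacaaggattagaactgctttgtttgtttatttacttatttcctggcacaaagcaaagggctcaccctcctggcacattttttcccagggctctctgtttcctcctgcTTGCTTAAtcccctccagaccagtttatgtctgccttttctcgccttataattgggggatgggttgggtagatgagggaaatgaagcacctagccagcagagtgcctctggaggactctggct
Pon2: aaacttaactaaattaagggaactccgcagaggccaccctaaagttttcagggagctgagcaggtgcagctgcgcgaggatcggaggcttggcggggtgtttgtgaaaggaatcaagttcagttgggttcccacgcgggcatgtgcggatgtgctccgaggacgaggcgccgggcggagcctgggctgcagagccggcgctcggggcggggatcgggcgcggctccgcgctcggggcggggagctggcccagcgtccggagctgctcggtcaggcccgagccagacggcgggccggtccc
Pon3: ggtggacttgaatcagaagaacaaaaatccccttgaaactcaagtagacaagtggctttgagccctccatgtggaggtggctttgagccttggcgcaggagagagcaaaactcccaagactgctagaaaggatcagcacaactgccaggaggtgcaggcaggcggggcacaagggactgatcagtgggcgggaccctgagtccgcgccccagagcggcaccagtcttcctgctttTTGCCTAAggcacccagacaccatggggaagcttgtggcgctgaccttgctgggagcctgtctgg
Pon1 holds TTGCTTAA at -73 to -66 and Pon3 holds TTGCCTAA at -15 to -8, both matches to the C/EBP pattern. The Pon2 window held none of the 5 patterns. Of the other members with a window, Ces2a and Ces2e held both the C/EBP and HNF4 patterns, Ces1g held the TATA box on the opposite strand, and Ces1e held none.

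The size of a measurable fall depended on how bright a probe was in control livers. The lowest intensity that passed detection was 192 on DKO 1 and 203 on DKO 2, or 5.54 in mean log2 units after normalization. From its control mean to this level, Ces1d had room for a fall of 7.79 on the log2 scale and its change was -7.32. Pon1 had room for 7.42 (change -7.00) and the first Ces1c probe for 6.75 (change -6.47). The mean DKO readings of these 3 genes were therefore near the lowest measurable value, although each was detected on DKO 1. The sizes of the changes depended on the background step. Without background correction they were -5.56 for Ces1d, -5.24 for Pon1 and -4.63 for this Ces1c probe, all still called. Ces1e, Ces1g and Ces2a had room for only 1.97, 1.05 and 2.67 (changes -2.01, -1.81 and -1.78). The changes of Ces1e and Ces1g exceeded their room, since undetected readings can lie below the lowest detected value. Pon2 had room for 6.53 (change -0.70). The Pon3 probes had room for 4.06, 2.40 and 2.94 (changes -1.03, -1.48 and -1.53). A comparison of fold changes between a bright and a dim probe is limited by this range.

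**Figure D3:**
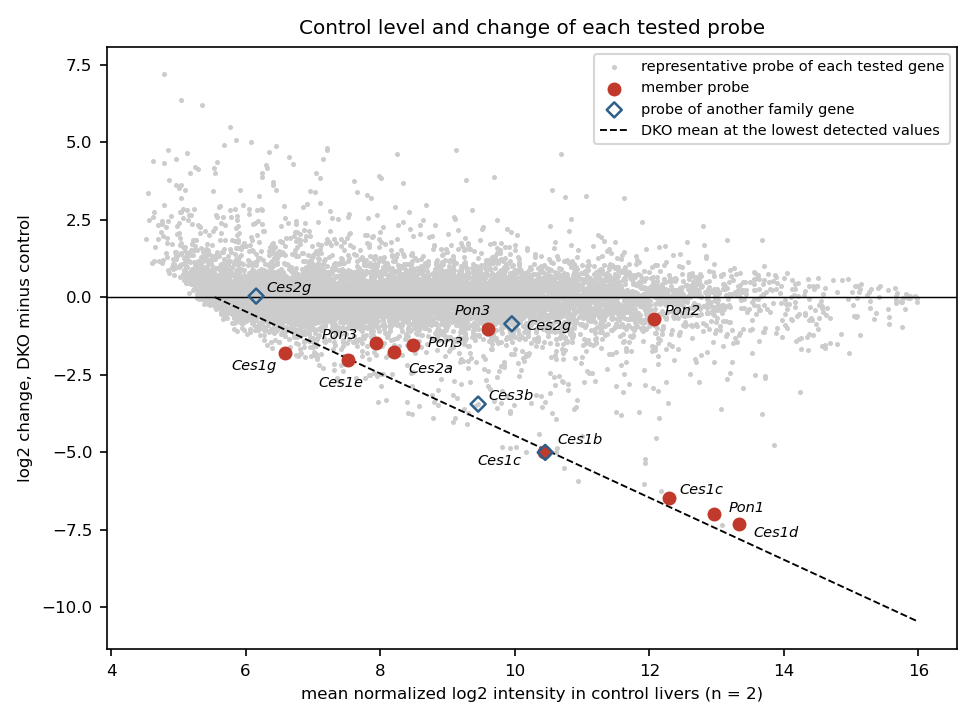
Mean log2 intensity in control livers (n = 2) against log2 change, DKO minus control, for member probes (red circles), probes of other Ces genes (blue diamonds) and the representative probe of every tested gene (grey). The dashed line marks where a DKO mean at the lowest detected values would fall. Ces1d, Pon1, Ces1c, Ces1b, Ces1e and Ces3b lie close to that line, and Ces1g lies below it. Pon2 and the brighter Ces2g probe lie far above it, at control levels similar to or lower than those of Ces1d, Pon1 and Ces1c.

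The genes outside both families whose readings over the 4 arrays were most like those of Ces1d were Cyp2e1, Cyp4a14 and Slc27a5, with root mean square differences of centred log2 values of 0.33, 0.61 and 0.77. The same 3 genes, in the same order, were nearest to Pon1, at 0.17, 0.53 and 0.70. Their log2 changes were -7.34, -6.25 and -5.92. The measure counts the size of a change, and Ces1d and Pon1 ranked 2 and 3 by lowest change among all tested genes. Few genes could therefore lie near either of them. Cyp2e1 oxidises ethanol and small drugs, Cyp4a14 hydroxylates fatty acids, and Slc27a5 links bile acids to coenzyme A. Their probes also read lower in DKO 2 than in DKO 1 and lower in Control 2 than in Control 1. Pon2 had other neighbours, Wdhd1, Rpl22 and Sirt1, at 0.021, 0.022 and 0.029. Likeness over 4 arrays, 2 in each group, is a description without a test.

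The genes of both families lie in 3 clusters of RefSeq genes. Ces1 genes and Ces5a span chr8:93020214-93535879, Ces2 to Ces4 genes span chr8:104734003-105150109, and Pon genes span chr6:5168090-5298345 (GRCm38.p6). In the first cluster the called genes Ces1b, Ces1c and Ces1d are neighbours, followed by Ces1e, which was not called. In the Pon cluster the order is Pon1, Pon3 and Pon2. None of the 8 tested genes on the flanks was called, where the largest differences were a log2 change of -1.09 for Pdk4, a kinase that shuts down pyruvate oxidation (adjusted p = 0.57), and 0.79 for Ciao2b (adjusted p = 0.39). Ppp1r9a, next to Pon1, had -0.67 (adjusted p = 0.48) and Asb4, next to Pon2, had 0.042.

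**Figure D4:**
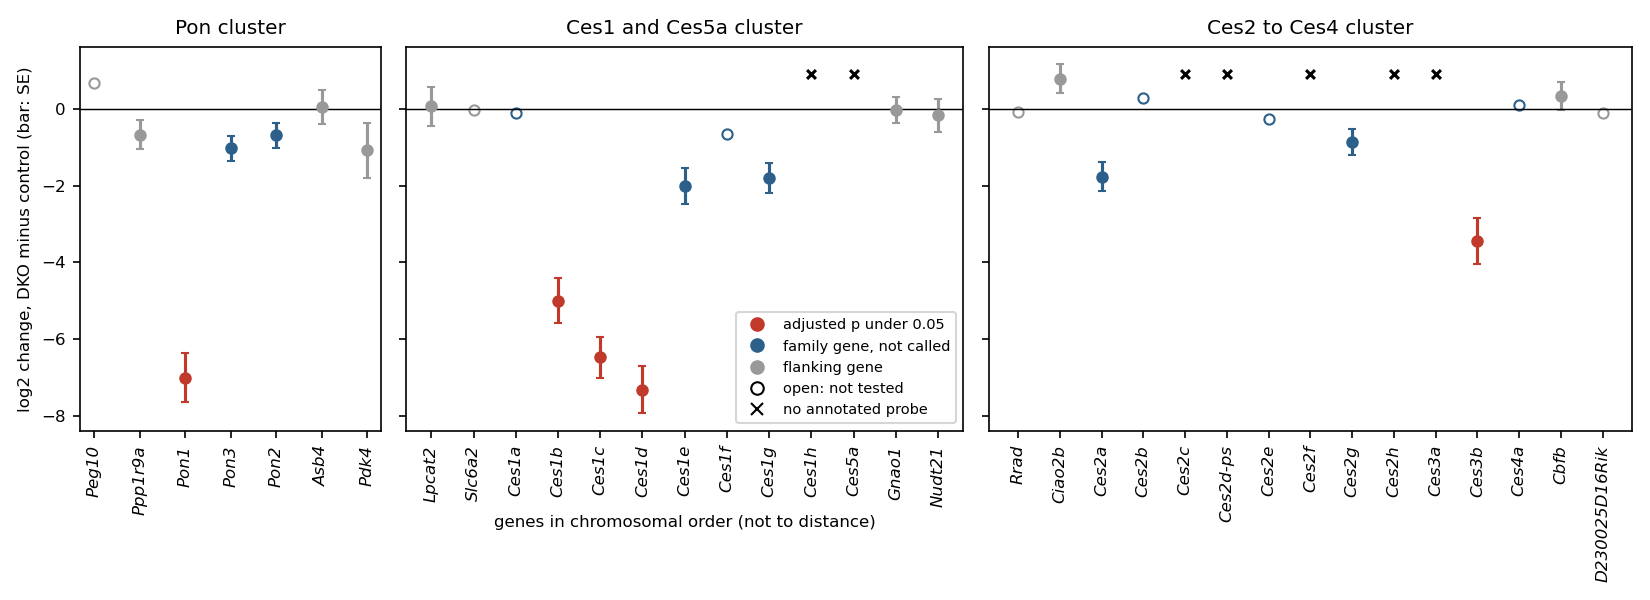
Log2 change, DKO minus control (bars: SE), of each gene in the 3 clusters and of 2 genes with a probe on either side, in chromosomal order and not to distance. Open circles were not tested, and crosses had no annotated probe. Called genes (red) lie at -3.44 or below, the other tested genes of the families lie between -2.01 and -0.70, and the flanking genes (grey) lie between -1.09 and 0.79 where tested.

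Other genes of ester and lipid hydrolysis and of lipid droplets were listed for comparison. Of 19 such genes 16 were tested, and limma called 0 lower and 0 higher, with 3 at an unadjusted p under 0.05 (16.1% of all tested genes were) and a median log2 change of -0.23. The methods' t-test found 1 of the 16 at an unadjusted 0.05 and 0 after adjustment. The most negative were Aadac, an esterase of the endoplasmic reticulum (1586 and 830.2 in DKO livers, 4645 and 2753 in control livers, log2 change -1.74, adjusted p = 0.11), and Mgll, the monoacylglycerol lipase (513 and 434 in DKO livers, 1267 and 883 in control livers, -1.44, adjusted p = 0.085). Among HDL genes, where PON1 and PON3 reside, 3 of 14 tested fell and 0 rose, with a median of -0.35, where 1.68% of all tested genes fell. By limma 5 of the 14 had an unadjusted p under 0.05, and the methods' t-test found 3 at an unadjusted 0.05 and 0 after adjustment. Apoc3, an inhibitor of lipoprotein lipase, read 268 and 247 in DKO livers against 1603 and 792 in control livers (log2 change -3.18, SE 0.40, adjusted p = 0.0090). Saa4, a constitutive HDL apolipoprotein, changed by -2.99 (SE 0.43, adjusted p = 0.014). Lcat, which esterifies HDL cholesterol, changed by -1.74 (SE 0.33, adjusted p = 0.039). Apoa1, the main HDL protein, read 47437 and 48414 in DKO livers and 50376 and 54248 in control livers (log2 change -0.083). Whether so bright a probe can register a fall was not tested. Clu, which encodes clusterin, had the most positive change: 6974 and 12877 in DKO livers against 3090.3 and 2332 in control livers, with separated groups (log2 change 1.94, adjusted p = 0.056).

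Among 17 regulators of hepatocyte and drug-response genes, 14 were tested, 1 was called lower and 0 higher, beside 1.68% and 1.75% of all tested genes. By limma 4 of the 14 had an unadjusted p under 0.05, as did 16.1% of all tested genes. The methods' t-test found 5 at an unadjusted 0.05 and 0 after adjustment. The median was -0.63, and the regulator called was Nr1i3, which encodes the xenobiotic receptor CAR. It was detected on neither DKO array (179 and 199.8) and on both control arrays (488 and 312), at least 4.92-fold lower in DKO livers on the background-corrected scale (adjusted p = 0.019). The ratio of its deposited means, DKO over control, was 0.474. Nr1i2, the receptor PXR, had a log2 change of -1.66 (adjusted p = 0.052), and Nr1h4, the bile acid receptor, one of -1.93 (adjusted p = 0.065). Hnf4a read 5598 and 2945 in DKO livers against 10285 and 5060.2 in control livers (log2 change -0.83, adjusted p = 0.50), and those groups overlapped.

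Markers of cell types were read beside these results, and only the biliary list had called genes. Of 7 biliary markers 5 had a probe, and 3 of them (Krt7, Krt19 and Cldn4) were called higher and 0 lower. Over all tested genes 1.75% were called higher and 1.68% lower. These 3 markers were detected on both DKO arrays, but Krt19 on neither control array and Krt7 and Cldn4 on only 1. The DKO arrays therefore carried them through the filter. The summed intensity of the 5 biliary markers was 6663 and 15616 in DKO livers and 2922 and 2913 in control livers. For hepatocytes, 9 of 10 markers were tested and 0 were called, with 1 at an unadjusted p under 0.05. The methods' t-test found 2 of the 9 at an unadjusted 0.05 and 0 after adjustment, and the median log2 change was -0.50. Ttr, a plasma carrier made by hepatocytes, read 55100.2 and 48546 in DKO livers and 54974 and 53091 in control livers, a level so bright that a fall may not register. The dimmer Cps1, of the urea cycle, read 10151 and 4449 in DKO livers against 24410.4 and 10535 in control livers (log2 change -1.30, adjusted p = 0.32). Erythroid markers summed to 100328 and 92049 in DKO livers and 136155 and 140181 in control livers, and 0 of 3 tested were called by limma, with 2 at an unadjusted p under 0.05, and by the methods' t-test 1 at an unadjusted 0.05 and 0 after adjustment. Lists for granulocytes, macrophages, endothelium, fibroblasts and pancreas had 0 called genes, with 0 at an unadjusted p under 0.05. Their median log2 changes were -0.33, -0.49, -0.46, -0.41 and -0.18, the last from 1 tested gene, and that of the erythroid markers was -0.95. The part of these cell types in the readings of the members was not tested.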

How the data were processed

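RNA from 4 neonatal livers was hybridised to Illumina MouseRef-8 bead arrays (per the labels, amplified and biotin-labelled). The authors deposited linear probe intensity without normalization between arrays, each value with its detection p-value, and a second table of intensity normalized between arrays by a method not given in the sources used here. Background was corrected by normexp from the detection p-values (offset 16) and values were quantile normalized and log2 transformed in limma 3.58.1 (R 4.3.3). Probes with detection p under 0.05 on at least 2 arrays were tested (lmFit and eBayes, two-sided, Benjamini-Hochberg over 13654 probes, threshold 0.05). The filter decides which probes are tested and leaves their changes as they are, whereas the offset limits falls toward background. For a gene with several tested probes, the one brightest on average (log2 scale) stood for the gene. Where a probe was undetected on all arrays of a group, an at-least fold on the normalized, background-corrected scale was taken against the higher of its value and the lowest detected value per array. Of 25697 probes, 23978 had 1 gene symbol, 0 several and 1719 none in the platform annotation, and 23962 matched RefSeq genes (GRCm38.p6). Groups came from the sample titles. The number of arrays, 2 a group, limits precision. The median SE was 0.37 log2 units and the smallest change called was 1.65. The fit was tested on simulated data. The methods' t-test (paired, two-tailed) was an alternative. The paper gives it for its statistics in general and names no test for the arrays. Here it paired arrays by the number in their titles, which no label calls a pairing, and had 1 degree of freedom.

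The members and gene lists were chosen with earlier results of these data known. Named genes were all members, other Ces genes with a probe, up to 2 called genes in each direction per list or else its 2 largest changes, the 3 nearest patterns for Ces1d, Pon1 and Pon2, the flanking genes and Lats2. Lcat, Apoa1, Clu, Nr1i2, Nr1h4, Hnf4a and single cell markers were named after their values were seen. Promoter motifs were exact matches on both strands, and promoter identity came from global alignment. Alternatives covered background correction, scaling, the filter, the offset, moderation, thresholds, a replicate block and each array left out.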

Additional observations from a re-analysis of the deposited data

How the results depend on the processing

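With 2 arrays a group, calls depend on how the spread is estimated. Against 3 members and 326 genes called, the numbers were 0 and 41 with no filter on dim probes, 0 of 3 tested members and 180 genes with only probes detected on all 4 arrays (Ces1c, Ces1d and Pon1 are then not tested), 6 and 519 at an adjusted p under 0.1, 6 and 962 by the methods' t-test at an unadjusted 0.05, and 0 and 2 by that test after Benjamini-Hochberg adjustment. All genes called numbered 137 without background correction, 158 with the authors' normalized values and 106 at an adjusted p under 0.01, with the same 3 members called in each. Leaving out each array in turn gave 3 to 4 members and 119 to 542 genes; Ces1c, Ces1d and Pon1 were called in all 4 of these fits, Ces2a was added without DKO 1 and Ces1e without DKO 2.

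The number in the sample titles is shared by the groups, but nothing in the labels says that it marks a litter, and only 2 pairs exist. Deviations of same-numbered arrays from their group means correlated at 0.54 across tested probes. With the replicate block, 7 members (all tested except Pon2) and 1352 genes were called. A slide block was not run, since the sources used here name no slides.

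The direction of the dim Ces2g probe ILMN_1247906 (log2 change 0.035) reversed to -0.015 without background correction, -0.048 with median scaling, -0.017 with the authors' normalized values and -0.030 with an offset of 50, and ranged from -1.05 to 1.12 with each array left out; the cause was not tested. No tested member probe reversed in any alternative run, but most of these runs could not have reversed one. Both DKO values of each probe lay below both control values, so leaving out 1 array could not change the direction. Fits that altered only the filter, moderation, block or test kept the same changes. Only the background step, the scaling, the offset and the authors' normalized values could have reversed a probe. Of the values of these probes over the alternatives 125 kept their side of the threshold, 12 gained and 11 lost it. The mean DKO readings of Ces1d, Pon1 and Ces1c lay near the lowest measurable value, and the fold changes of these genes depended on the background step. For Ces1c the fold also varied with the probe after background correction. It was 88.9-fold lower for ILMN_2980371, 31.8-fold for ILMN_2704749 and 1.02-fold for ILMN_1235564, which did not pass the filter. What else limits these fold changes was not tested.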
